A study of Mus musculus with 6 samples.

Results

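The genes described here are 39 interferon response genes, followed across islets of 3 mouse groups. They were taken from a fixed list of gene names, and their probes were found through the RefSeq accessions of the array annotation. Of the 39 genes, 37 had at least 1 probe (46 probes in all), and 35 were measured well enough to be tested among 19021 genes of the array. Messenger RNA of pancreatic islets, the hormone-secreting cell clusters of the pancreas, was measured on 6 Agilent 1-colour microarrays, 2 per group. All groups were male mice of 16 weeks on the ICR background, and all carried floxed Trsp, written Flox/Flox for the knockouts. TrspFF mice carried the floxed gene with no Cre named. Trsp-RIPKO mice also carried RIP-Cre, driven by the rat insulin promoter, and Trsp-Ins1KO mice carried Ins1-Cre, driven by the insulin 1 gene. No group with Cre alone was among the samples, so Cre and the loss of Trsp cannot be told apart in either line. Both Cre drivers act in beta cells, so the other islet cells are taken to keep Trsp, and RIP-Cre is also known to act in some neurons of the hypothalamus.

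Trsp encodes the transfer RNA that inserts selenocysteine, so its loss stops the making of selenoproteins, many of which remove peroxides. Type I and type III interferons are secreted when a cell detects viral or misplaced nucleic acid, and type II interferon comes mainly from lymphocytes. Their receptors signal through Janus kinases to STAT proteins, and a complex that includes STAT2 and IRF9 binds the interferon-stimulated response element in front of its target genes. The targets include the RNA sensors themselves, proteins that block viral replication, enzymes of ubiquitin and ADP-ribose tagging, GTPases, and parts of the antigen processing machinery. In islets this programme is known from type 1 diabetes, in which beta cells carry an interferon signature.

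The sequences in front of the gene starts show what many of these genes share. Of the 39 genes, 29 had a promoter in the RefSeq table of the GRCm38.p6 assembly. The core of the interferon-stimulated response element was searched on both strands as GAAA, any 2 bases and GAAA again, in the 250 bases before the gene start. It was found in 11 of the 29 genes (37.9%), against 936 of 27025 genes in that table (3.46%) and 978 of its 32851 promoters (2.98%). The genes with a match were Bst2, Cxcl10, Gbp2, Gbp3, Ifit1, Ifit3, Isg15, Oas1a, Rsad2, Stat2 and Trim30a. A second interferon element, the gamma-activated sequence, searched as TTCNNNGAA, was found in 6 of the 29 genes (20.7%) against 2197 of 27025 (8.13%), namely Bst2, Eif2ak2, Ifit2, Irf1, Oas1a and Psmb8. Bst2 and Oas1a held both elements, which overlap in Bst2 but not in Oas1a. A match is a string of letters and not a site shown to be bound.

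The stretches around the matches of 8 genes are printed because these genes hold the element and their measured changes differ. Their matches also differ in number, orientation and distance from the gene start. Each runs 5′ to 3′ on the gene's own strand and ends before the gene start, and capitals mark the element, in either orientation. On GRCm38.p6 they lie at chr19:34640765-34640833 on the plus strand for Ifit1, chr19:34583353-34583436 on the plus strand for Ifit3, chr4:156200855-156200916 on the minus strand for Isg15 and chr5:120907526-120907565 on the minus strand for Oas1a. The others lie at chr12:26456543-26456592 on the minus strand for Rsad2, chr8:71537567-71537622 on the minus strand for Bst2, chr3:142559979-142560034 on the plus strand for Gbp3 and chr5:92349073-92349122 on the minus strand for Cxcl10. Runs of capitals longer than 10 bases are overlapping matches.
Ifit1: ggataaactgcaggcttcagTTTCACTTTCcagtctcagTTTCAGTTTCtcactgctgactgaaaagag
Ifit3: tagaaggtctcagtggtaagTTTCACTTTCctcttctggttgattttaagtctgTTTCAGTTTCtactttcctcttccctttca
Isg15: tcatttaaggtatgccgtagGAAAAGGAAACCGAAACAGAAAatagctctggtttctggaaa
Oas1a: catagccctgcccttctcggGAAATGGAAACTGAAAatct
Rsad2: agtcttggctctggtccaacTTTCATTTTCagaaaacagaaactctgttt
Bst2: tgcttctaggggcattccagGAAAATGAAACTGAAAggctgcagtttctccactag
Gbp3: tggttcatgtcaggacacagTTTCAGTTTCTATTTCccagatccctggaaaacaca
Cxcl10: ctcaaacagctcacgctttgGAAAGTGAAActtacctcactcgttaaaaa

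The names of the arrays need a word before any direction is read. Columns named TrspFF in the authors' table of processed values held the values of the scanner files recorded for Trsp-Ins1KO (r = 1 across 2885 probes, against -0.26 and -0.44 with their own files), and the columns named Trsp-Ins1KO held those of TrspFF. Trsp-RIPKO columns held their own. Every direction below follows the scanner files. Under the table's names each Trsp-Ins1KO difference from TrspFF has the opposite sign, with 17 of the interferon genes called higher and 3 lower (23.0% of all genes each way), and Trsp-RIPKO is compared with the arrays filed as Trsp-Ins1KO, with 16 called higher and 3 lower (19.4% and 19.2%). No probe for Trsp was found, and the names could not be checked by the targeted gene. Xist, the RNA of the silenced X chromosome, was well above background in TrspFF (log2 -0.56 and -0.32) and Trsp-RIPKO (1.05 and 1.34). The labels say male, and neither Trsp-Ins1KO array had Xist above background. Ddx3y and Eif2s3y, genes of the Y chromosome, were well above background on every array. Ddx3y was at 0.96 and 0.78 in TrspFF and 0.75 and 0.51 in Trsp-Ins1KO, but at -0.53 and -0.44 in Trsp-RIPKO. Eif2s3y was likewise dimmest in Trsp-RIPKO (0.37 and 0.32), with 1.53 and 1.41 in TrspFF and 1.11 and 1.02 in Trsp-Ins1KO. TrspFF and Trsp-RIPKO arrays thus held Xist beside Y transcripts, and the reason was not tested.

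All levels below are log2 processed intensities relative to the array's 75th percentile, so that 1 unit is a doubling. That percentile lay between 203.0 and 247.2 intensity units for TrspFF and Trsp-RIPKO, and at 121.9 and 110.7 on the Trsp-Ins1KO arrays, which also had fewer spots well above background (52.7% and 51.9%, against 58.0% to 61.5%). Both Trsp-RIPKO arrays lay on a slide of their own and were marked for evaluation by the scanner software, so slide and genotype cannot be told apart for that line. TrspFF and Trsp-Ins1KO shared the other slide. Groups were compared in limma across all genes, with 2 arrays a group and a Benjamini-Hochberg adjusted p under 0.05 as the threshold, and "rose" and "fell" are used only past it. SE is the standard error that limma fitted to a difference. The labels do not tell whether a group's 2 arrays hold RNA of different animals, so the p-values reflect the spread of these samples alone, and it may be technical. Where the dimmer group had no array with the probe well above background, the change is given as "at least" a fold against the lowest measurable signal. In bulk tissue, fewer cells of a type and less RNA per cell cannot be told apart.

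In Trsp-Ins1KO islets most of the genes that passed the test were lower than in TrspFF. Of 35 tested genes, 17 fell and 3 rose, while over all genes tested 23.0% fell and 23.0% rose, and the median difference of the 35 was -0.35 against -0.01 for all genes. With the genes below background set at their bound, the median of the 35 was -0.34. Dhx58, Ifit1, Ifit3, Oas2 and Ifi44, all counted as lower, were above background on no Trsp-Ins1KO array. They entered through the other groups, so the filter favoured a lower direction for them. Among the genes that fell were Ifi27l2a, Xaf1, Samd9l, Oas2 and Ifit1, whereas Rsad2, Zbp1 and Irf1 rose. This split depends on the background correction. With normexp correction and an offset of 50 it turned to 15 higher and 8 lower, with all genes' median difference at 0.16 and 48.3% of all genes higher and 25.0% lower. Without the offset it was 4 higher and 13 lower, against 26.5% and 19.8% of all genes. Within the shared slide, in a fit of TrspFF and Trsp-Ins1KO alone, 16 genes fell and 3 rose (22.5% and 22.3% of all genes). Where an array is left out, its group has 1 sample, which is assumed to vary like the other groups. Leaving out TrspFF 1 left 8 lower and 1 higher (9.04% and 9.51% of all genes), and leaving out TrspFF 2 left 9 lower and 1 higher (9.97% and 11.1%).

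In Trsp-RIPKO islets the same genes showed no common direction. Of the 35, 7 rose and 6 fell, against 18.9% and 17.5% of all genes, a share near that background. Their median difference was -0.01, against -0.00 for all genes. Those that rose were Gbp3, Zbp1, Gbp2, Rsad2 and Usp18, together with Ifit2 and Cxcl10. Ifit2 and Cxcl10 entered the test only through Trsp-RIPKO, where they were bright, so their direction was built into the filter. Those that fell were Samd9l, Dtx3l, Ifi35, Psmb8, Bst2 and Trim25. None of these 13 calls held each time 1 array was left out. Without a TrspFF or a Trsp-RIPKO array, which leaves that group 1 sample, few or none of the 13 calls remained. Calls then became fewer among all genes as well. Scaling to the array median, which moved the median of all genes by -0.24, gave 4 higher and 13 lower, against 10.6% and 38.2% of all genes.

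The lines were also compared with each other. Trsp-Ins1KO was lower than Trsp-RIPKO in 16 of the 35 genes and higher in 3, against 19.4% and 19.3% of all genes. With normexp correction and the offset, the counts were 8 lower and 13 higher, against 19.8% and 43.8% of all genes. Both comparisons with TrspFF share the same control arrays, so their values are set side by side here and not counted as separate support.

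Of the 35 genes, 27 were well above background on all 6 arrays. Over these 27, 11 fell and 3 rose in Trsp-Ins1KO (22.9% and 25.0% of the genes measured on all arrays), and 6 fell and 5 rose in Trsp-RIPKO (19.7% and 18.1%). In Trsp-Ins1KO against Trsp-RIPKO, 10 of the 27 were lower and 3 higher (16.7% and 21.6%). The remaining 8, Dhx58, Ifit1, Ifit2, Ifit3, Oas2, Ifi44, Trim30a and Cxcl10, were dim on some array. Ifit2 and Cxcl10 entered only through Trsp-RIPKO, the group in which they were bright, so a difference there was built into the filter. Dhx58, Ifit1, Ifit3, Oas2 and Ifi44 were above background on no Trsp-Ins1KO array and entered through the other groups. For these genes the filter favoured a lower level in Trsp-Ins1KO. Irf7, the interferon factor that amplifies the response, and Tap1, a subunit of the peptide transporter, had a probe that was well above background on no array. Mx1 and Mx2, the dynamin-like antiviral GTPases, had no probe that could be matched by name.

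**Figure D1:**
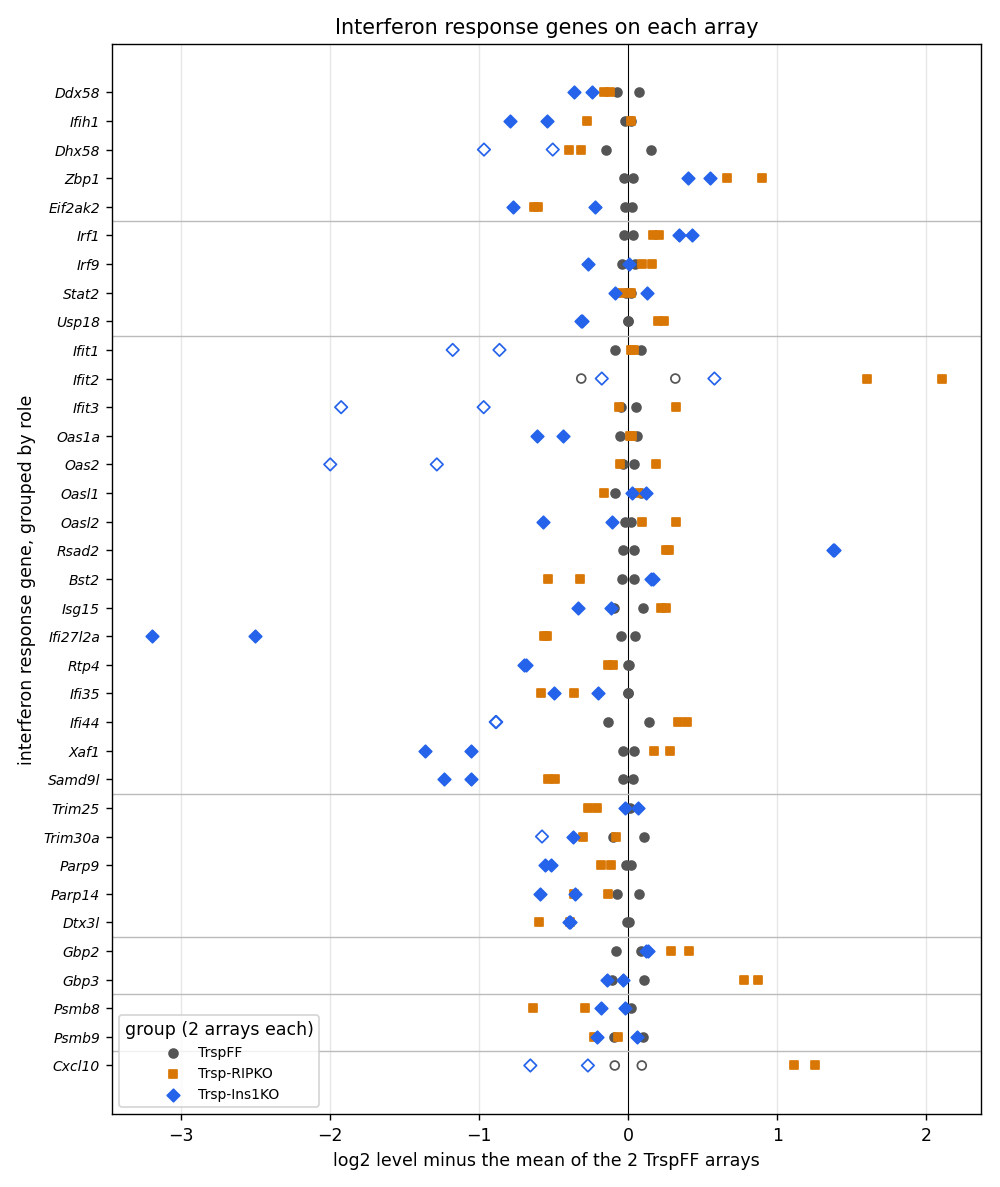
Log2 level of each of the 35 tested interferon response genes on each array, minus the mean of the 2 TrspFF arrays (horizontal axis), with genes in rows grouped by role and separated by grey lines; open symbols are arrays on which the probe was not well above background. Both Trsp-Ins1KO arrays lie far to the left for Ifi27l2a (-3.12 and -2.42 before the TrspFF mean is taken off) and to the right for Rsad2 (-0.69 and -0.68, against -2.10 and -2.02 in TrspFF).

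The cytosolic sensors start the response. Ifih1, which encodes the long double-stranded RNA sensor MDA5, read -1.38 and -1.42 in TrspFF, -1.68 and -1.38 in Trsp-RIPKO against -2.20 and -1.94 in Trsp-Ins1KO. Both Trsp-Ins1KO arrays lay below all the others, whereas the TrspFF and Trsp-RIPKO arrays overlapped. Ifih1 fell in Trsp-Ins1KO by 0.67 on the log2 scale (SE 0.14, adjusted p = 0.015), and it was also lower there than in Trsp-RIPKO (-0.54, adjusted p = 0.0322). Ddx58, which encodes the 5′-triphosphate RNA sensor RIG-I, read -0.30 and -0.15 in TrspFF and -0.46 and -0.58 in Trsp-Ins1KO, a smaller fall of 0.30 (SE 0.09, adjusted p = 0.0396). A second, dim probe of Ddx58 differed by -0.15 in Trsp-Ins1KO, not past the threshold (limma adjusted p = 0.278). That probe was well above background on neither Trsp-Ins1KO array. Dhx58, the regulatory helicase LGP2 of the same family, was well above background on no Trsp-Ins1KO array and fell at least 1.46-fold (adjusted p = 0.0275). In Trsp-RIPKO none of these 3 helicases passed the test (-0.13, -0.14 and -0.36).

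Zbp1, a sensor of left-handed nucleic acid that can trigger necroptosis, went the other way in both lines. Its levels were -3.58 and -3.64 in TrspFF, -2.95 and -2.71 in Trsp-RIPKO against -3.07 and -3.21 in Trsp-Ins1KO. No knockout array reached down to the TrspFF pair. Zbp1 rose by 0.78 in Trsp-RIPKO (SE 0.11, adjusted p = 0.00986) and by 0.47 in Trsp-Ins1KO (adjusted p = 0.0205). Eif2ak2, the RNA-activated kinase PKR that halts translation, read -0.81 and -0.86 in TrspFF, -1.47 and -1.44 in Trsp-RIPKO against -1.05 and -1.61 in Trsp-Ins1KO. All 4 knockout arrays lay below TrspFF, but neither difference passed the test (-0.62, adjusted p = 0.0519, and -0.50, adjusted p = 0.0796). With 1 array left out, the highest adjusted p of the Trsp-Ins1KO calls was 0.0821 for Ifih1, lost without either TrspFF array, and 0.107 for Zbp1, lost also without Trsp-Ins1KO 1. It was 0.128 for Dhx58, which held only without Trsp-Ins1KO 2, and 0.199 for Ddx58, which held only without Trsp-Ins1KO 1. The call of Zbp1 in Trsp-RIPKO was lost without either TrspFF array (adjusted p up to 0.066), and the difference of Ifih1 between the lines without either TrspFF array, Trsp-RIPKO 2 or Trsp-Ins1KO 1 (up to 0.119). Under normexp with the offset, Dhx58 turned to 0.33 higher in Trsp-Ins1KO.

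The transcription factors of the pathway moved little. Stat2 and Irf9, which are parts of the interferon-stimulated gene factor, did not pass the test in any comparison. Stat2 lay between 0.64 and 0.86 on all 6 arrays, and Irf9 between 0.55 and 0.98. Irf1, a factor induced by interferon gamma, read 2.03 and 2.09 in TrspFF, 2.23 and 2.27 in Trsp-RIPKO against 2.49 and 2.40 in Trsp-Ins1KO. The groups did not overlap, and the rise was past the threshold in Trsp-Ins1KO (0.38, SE 0.07, adjusted p = 0.0115) but not in Trsp-RIPKO (0.18, adjusted p = 0.0982). The lines did not differ past the threshold in Irf1 (0.20, adjusted p = 0.079). The Irf1 call was lost without either TrspFF array (adjusted p up to 0.0848). A second, dim probe of Irf1 was well above background on 1 Trsp-Ins1KO array only and was not tested.

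Usp18, the protease that removes ISG15 and damps the interferon receptor, was called higher in one line and lower in the other. It read 0.72 and 0.72 in TrspFF, 0.96 and 0.92 in Trsp-RIPKO against 0.40 and 0.41 in Trsp-Ins1KO. The 3 groups were fully separate, and each pair agreed closely. Usp18 fell in Trsp-Ins1KO by 0.31 (SE 0.06, adjusted p = 0.0144), and the lines differed by -0.53 (adjusted p = 0.00433). The rise in Trsp-RIPKO was small (0.22, adjusted p = 0.0485), was lost whichever array was left out (adjusted p up to 0.211) and was -0.02 after median scaling. The fall was lost without either TrspFF array (adjusted p up to 0.0935).

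Among the antiviral effectors, 9 of 16 tested genes fell and 1 rose in Trsp-Ins1KO, against 23.0% of all genes each way. Of those that fell, Ifit1, Ifit3, Oas2 and Ifi44 were above background on no Trsp-Ins1KO array. They entered through the other groups, so the filter favoured a lower direction for them. Of the 16, 2 rose and 3 fell in Trsp-RIPKO (12.5% and 18.75%), against 18.9% and 17.5% of all genes. Ifi27l2a, a small membrane protein that is strongly induced by interferon, had the largest difference of the 35 genes in Trsp-Ins1KO. It read 0.13 and 0.03 in TrspFF, -0.47 and -0.49 in Trsp-RIPKO against -3.12 and -2.42 in Trsp-Ins1KO. The 3 groups did not overlap, and the Trsp-Ins1KO pair lay far below the rest while still above background. Ifi27l2a fell 7.21-fold in Trsp-Ins1KO (log2 difference -2.85, SE 0.23, adjusted p = 0.00195), and in Trsp-RIPKO the difference was -0.56 (adjusted p = 0.111). The lines differed by -2.29 (adjusted p = 0.00294). Normexp correction with the offset shrank the Trsp-Ins1KO difference to -1.39, still past the threshold.

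Samd9l, which restricts translation and cell growth, fell in both lines and more in Trsp-Ins1KO. Its levels were 0.84 and 0.91 in TrspFF, 0.34 and 0.39 in Trsp-RIPKO against -0.18 and -0.36 in Trsp-Ins1KO. The groups were fully separate and stepped down in that order. The fall was 0.51 in Trsp-RIPKO (adjusted p = 0.0141) and 1.15 in Trsp-Ins1KO (SE 0.09, adjusted p = 0.00178), and the lines differed by -0.63 (adjusted p = 0.00614). A second probe of Samd9l gave differences of -0.25 and -1.29 from TrspFF, the first of which did not pass the test. The Trsp-RIPKO call was lost without either TrspFF or either Trsp-RIPKO array (adjusted p up to 0.0885).

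Xaf1, a pro-apoptotic partner of the caspase inhibitor XIAP, read -1.62 and -1.55 in TrspFF, -1.41 and -1.31 in Trsp-RIPKO against -2.95 and -2.64 in Trsp-Ins1KO. Only the Trsp-Ins1KO arrays were low. Xaf1 fell there by 1.21 (SE 0.12, adjusted p = 0.00278) and did not pass the test in Trsp-RIPKO (0.23, adjusted p = 0.191). The 2 probes of Xaf1 disagreed for Trsp-RIPKO: the other probe fell by 0.72 there, and it was well above background on no Trsp-Ins1KO array. Under normexp with the offset the Trsp-Ins1KO difference was -0.14 (adjusted p = 0.119). Rtp4, a chaperone of membrane receptors, read -0.49 and -0.48 in TrspFF, -0.59 and -0.62 in Trsp-RIPKO against -1.18 and -1.17 in Trsp-Ins1KO. The pairs lay close together, and it fell in Trsp-Ins1KO by 0.69 (SE 0.06, adjusted p = 0.00235), with -0.12 in Trsp-RIPKO. Under normexp with the offset that fall was 0.27.

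The IFIT proteins bind viral RNA that lacks the host cap, and the OAS enzymes make the second messenger that activates RNase L. Ifit1 read -2.38 and -2.55 in TrspFF and -2.45 and -2.43 in Trsp-RIPKO, and was well above background on neither Trsp-Ins1KO array, where it read -3.33 and -3.64. It fell at least 1.86-fold in Trsp-Ins1KO (adjusted p = 0.00433), and TrspFF and Trsp-RIPKO overlapped. Ifit3 was also below background in Trsp-Ins1KO alone, with a log2 difference of -1.45 (adjusted p = 0.0206), but its TrspFF levels of -3.77 and -3.66 were too close to the measurable limit there for a fold. Ifit2 was measured above background in Trsp-RIPKO only, at -3.76 and -3.26, and was at least 1.81-fold higher than in TrspFF (adjusted p = 0.0179). Its probe entered the test only through that knockout group, so the direction of the difference was built into the filter.

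Oas1a read 0.08 and -0.04 in TrspFF, 0.03 and 0.04 in Trsp-RIPKO against -0.59 and -0.42 in Trsp-Ins1KO. Only the Trsp-Ins1KO pair stood apart, with a fall of 0.52 (SE 0.09, adjusted p = 0.00944). The Oas1 genes of the mouse are close copies, so the probe may read more than 1 of them. Oas2 read -3.03 and -2.96 in TrspFF and -3.05 and -2.80 in Trsp-RIPKO, was below background in Trsp-Ins1KO and fell there at least 1.41-fold (adjusted p = 0.00649). Oasl1, between -2.63 and -2.35 on all arrays, and Oasl2, between -2.74 and -1.85, passed the test in no comparison. Ifi44, a cytoplasmic protein of uncertain function, read -2.62 and -2.90 in TrspFF and -2.37 and -2.42 in Trsp-RIPKO and fell at least 1.66-fold in Trsp-Ins1KO (adjusted p = 0.004). With 1 array left out, Ifit1, Oas2 and Ifi44 kept their calls in Trsp-Ins1KO, Oas1a lost its call without TrspFF 1 (adjusted p = 0.0683), and Ifit3 without either TrspFF array (up to 0.0937). The Ifit2 call in Trsp-RIPKO was lost without either TrspFF or either Trsp-RIPKO array (up to 0.0882). The normexp offset is by construction a larger share of the signal on the dim Trsp-Ins1KO arrays. With it, Ifit1, Ifit3, Oas2 and Ifi44 turned to between 0.26 and 0.40 higher in Trsp-Ins1KO. Without the offset none of the 4 was reversed, and Ifit1 and Oas2 kept their calls, but Ifit3 and Ifi44 lost theirs (-0.22 and -0.17, adjusted p = 0.27 and 0.256).

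Rsad2, the radical SAM enzyme viperin that makes a chain-terminating nucleotide, rose in both lines. It read -2.10 and -2.02 in TrspFF, -1.81 and -1.79 in Trsp-RIPKO against -0.69 and -0.68 in Trsp-Ins1KO. The groups were fully separate and stepped up in that order. Rsad2 rose 2.60-fold in Trsp-Ins1KO (1.38, SE 0.07, adjusted p = 0.000716), and the lines differed by 1.11 (adjusted p = 0.00102). The rise in Trsp-RIPKO was 0.27 (adjusted p = 0.0344), and it was lost without either TrspFF or either Trsp-RIPKO array (adjusted p up to 0.195). Cmpk2, the nucleotide kinase encoded next to Rsad2 on chromosome 12, read -0.05 and 0.04 in TrspFF, 0.68 and 0.70 in Trsp-RIPKO against 1.51 and 1.68 in Trsp-Ins1KO. Its groups were equally separate, and it rose by 0.69 and 1.60 in the 2 lines (adjusted p = 0.00811 and 0.000918). The Cmpk2 calls were not followed with an array left out.

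Bst2, the virion-tethering protein tetherin, and Isg15, the ubiquitin-like modifier, differed between the lines more than from TrspFF. Bst2 read -0.18 and -0.26 in TrspFF, -0.55 and -0.76 in Trsp-RIPKO against -0.06 and -0.07 in Trsp-Ins1KO. It fell in Trsp-RIPKO by 0.43 (adjusted p = 0.0242, lost without either TrspFF array or Trsp-RIPKO 2, up to 0.135), and the lines differed by 0.59 (adjusted p = 0.009). Isg15 read -0.40 and -0.20 in TrspFF, -0.08 and -0.05 in Trsp-RIPKO against -0.64 and -0.41 in Trsp-Ins1KO. TrspFF lay between the knockouts, from which it did not differ past the threshold (0.24 and -0.23), and the lines differed by -0.46 (adjusted p = 0.0286). That difference was lost without TrspFF 2, Trsp-RIPKO 1, Trsp-RIPKO 2 or Trsp-Ins1KO 1 (adjusted p up to 0.114). Ifi35, a partner of the transcription regulator NMI, fell in Trsp-RIPKO by 0.47 (adjusted p = 0.0427, up to 0.17 with a TrspFF or Trsp-RIPKO array left out), and the Trsp-Ins1KO difference of -0.35 did not pass the test.

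**Figure D2:**
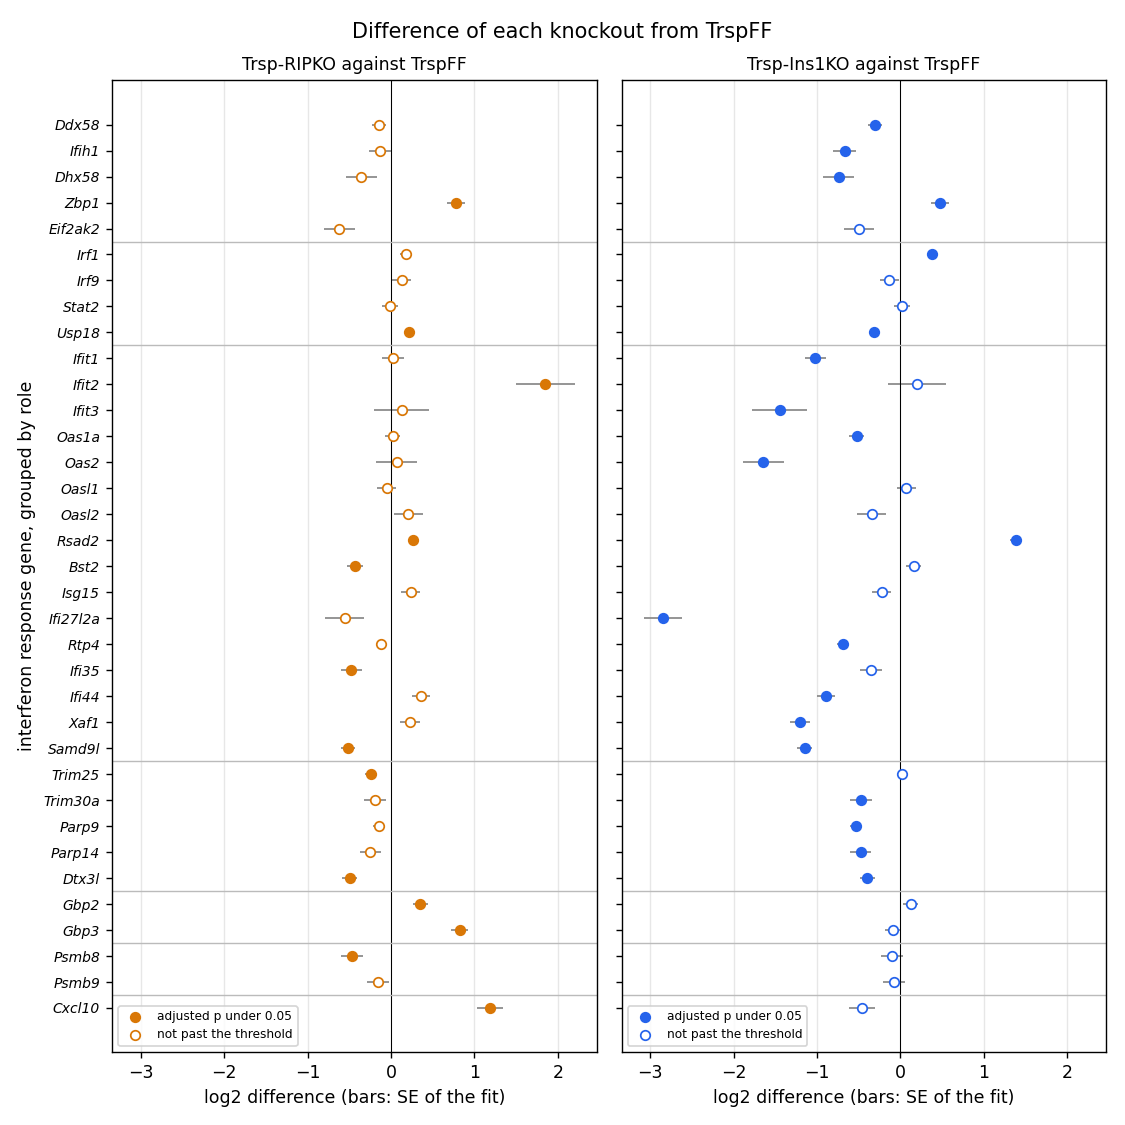
Log2 difference of each knockout from TrspFF for the 35 tested genes (points, with the SE of the limma fit as bars), Trsp-RIPKO on the left and Trsp-Ins1KO on the right; filled points are past an adjusted p of 0.05, and the size of a difference is uncertain where a probe was below background. Filled points lie on both sides of 0 for Trsp-RIPKO (7 higher, 6 lower, against 18.9% and 17.5% of all genes). They lie mainly to the left for Trsp-Ins1KO (3 higher, 17 lower, against 23.0% of all genes each way). Normexp correction with the offset gave 15 higher and 8 lower there, against 48.3% and 25.0% of all genes.

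Parp14, Dtx3l and Parp9 stand in a row on chromosome 16. PARP9 and DTX3L work as a pair that joins ADP-ribosylation and ubiquitination, and PARP14 is a related ADP-ribosyltransferase. All 3 fell in Trsp-Ins1KO, Dtx3l by 1 of its 2 probes. Parp9 read -0.72 and -0.76 in TrspFF, -0.86 and -0.92 in Trsp-RIPKO against -1.26 and -1.30 in Trsp-Ins1KO, fully separate groups, with a fall of 0.54 (SE 0.07, adjusted p = 0.00431). Parp14 read 0.31 and 0.16 in TrspFF, 0.10 and -0.13 in Trsp-RIPKO against -0.35 and -0.12 in Trsp-Ins1KO, where the knockout lines overlapped, with a fall of 0.47 (adjusted p = 0.0332). Dtx3l fell in both lines, by 0.50 in Trsp-RIPKO (adjusted p = 0.0167) and by 0.40 in Trsp-Ins1KO (adjusted p = 0.0214). A second, dim probe of Dtx3l differed by 0.66 in Trsp-RIPKO and 0.28 in Trsp-Ins1KO, neither past the threshold. The mean of both probes differed by 0.08 and -0.06 (adjusted p = 0.748 and 0.808), so neither call held with it. The calls of Parp14 and Dtx3l in Trsp-Ins1KO were lost without either TrspFF array or Trsp-Ins1KO 1, and that of Dtx3l also without Trsp-Ins1KO 2 (adjusted p up to 0.158 and 0.108). The call of Dtx3l in Trsp-RIPKO was lost without either TrspFF array or Trsp-RIPKO 1 (up to 0.0994). Parp9 kept its call each time but was -0.13 under normexp with the offset.

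The 2 TRIM ligases differed. Trim25, which ubiquitinates RIG-I, read 3.93 and 3.90 in TrspFF, 3.65 and 3.70 in Trsp-RIPKO against 3.98 and 3.89 in Trsp-Ins1KO. Only Trsp-RIPKO was low, by 0.24 (SE 0.07, adjusted p = 0.0498), and this call was lost without either TrspFF or either Trsp-RIPKO array (adjusted p up to 0.221). Trim30a, a mouse TRIM protein, fell in Trsp-Ins1KO by 0.48 (adjusted p = 0.0346), with 1 of the 2 arrays there above background. It lost that call without either TrspFF array, Trsp-RIPKO 1 or Trsp-Ins1KO 2 (up to 0.162), and it turned to 0.30 higher under normexp with the offset.

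Gbp2 and Gbp3 belong to the guanylate-binding proteins, GTPases that attack the vacuoles of intracellular pathogens. Gbp3 read -1.95 and -1.74 in TrspFF, -1.07 and -0.98 in Trsp-RIPKO against -1.88 and -1.99 in Trsp-Ins1KO. Only the Trsp-RIPKO pair was high. Gbp3 rose there by 0.82 (SE 0.10, adjusted p = 0.00811), with -0.09 in Trsp-Ins1KO, and the lines differed by -0.91 (adjusted p = 0.00373). Gbp2 read -1.73 and -1.90 in TrspFF, -1.53 and -1.41 in Trsp-RIPKO against -1.70 and -1.68 in Trsp-Ins1KO, a rise of 0.35 in Trsp-RIPKO (adjusted p = 0.0373), while the difference between the lines did not pass the test (-0.22, adjusted p = 0.109). The Gbp3 call was lost without TrspFF 1 or Trsp-RIPKO 2 (adjusted p up to 0.0547), and that of Gbp2 whichever array was left out (up to 0.179). Guanylate-binding protein genes lie in clusters of close copies, so a probe may read a neighbour.

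Cxcl10, the chemokine that draws T cells through CXCR3, was well above background on the Trsp-RIPKO arrays only, at -3.85 and -3.99. Cxcl10 entered the test only through that group, so the direction of its difference was built into the filter. It was at least 1.36-fold higher there than in TrspFF (adjusted p = 0.00905), and the call was lost without either TrspFF array or Trsp-RIPKO 1 (up to 0.0585). Psmb8 and Psmb9 are subunits of the immunoproteasome, which cuts peptides for presentation. Psmb8 read 0.17 and 0.14 in TrspFF, -0.14 and -0.48 in Trsp-RIPKO against 0.13 and -0.03 in Trsp-Ins1KO. Trsp-RIPKO lay lowest, a fall of 0.47 (adjusted p = 0.0481) that held only without Trsp-RIPKO 1 when single arrays were left out (up to 0.187). Psmb9 lay between 0.01 and 0.34 on all arrays and passed the test in no comparison.

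Set beside the promoter matches, genes were called in both directions. Of the 11 genes with the interferon-stimulated response element, Ifit1, Ifit3, Oas1a and Trim30a fell in Trsp-Ins1KO, Rsad2 rose, and 6 did not pass the test. Over all genes 23.0% were called each way there. Ifit1 and Ifit3 were above background on no Trsp-Ins1KO array and Trim30a on 1, and these genes turned higher under normexp with the offset. In Trsp-RIPKO, Rsad2, Gbp2, Gbp3 and Cxcl10 rose, Bst2 fell, and the other 6 did not pass the test. Over all genes 18.9% were higher and 17.5% lower in that line. These few calls were not tested against those shares. Cxcl10 entered the test only through Trsp-RIPKO, where it was high. Ifi27l2a, Samd9l and Xaf1, which fell in Trsp-Ins1KO, had no match in this window (Samd9l and Xaf1) or no promoter in the table (Ifi27l2a), which says nothing of what regulates them.

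**Figure D3:**
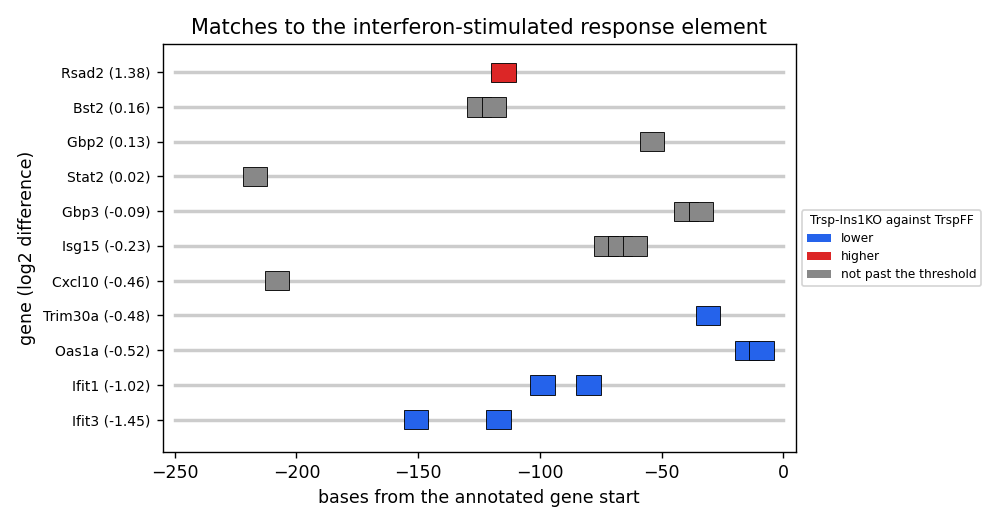
Position of each match to the interferon-stimulated response element (boxes) in the 250 bases before the annotated start of 11 interferon response genes, ordered by the log2 difference of Trsp-Ins1KO from TrspFF given beside the name; box colour marks the call in that comparison. Rsad2 (1 match, 120 bases before the start) and Ifit1 (matches at 104 and 85) were called in opposite directions, although Ifit1 and Ifit3 turned higher under normexp with the offset.

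The rest of the pathway was read from 6 lists. Their counts stand beside 18.9% of all genes higher and 17.5% lower in Trsp-RIPKO, and 23.0% each way in Trsp-Ins1KO. Calls of genes on these lists were not followed with an array left out or under other processing. Of 21 interferon genes, 7 were tested, and 1 rose and 1 fell in Trsp-RIPKO, with 1 higher and 2 lower in Trsp-Ins1KO. The probe named Ifna11 rose by 1.69 in Trsp-RIPKO (adjusted p = 0.00362) and 0.43 in Trsp-Ins1KO (adjusted p = 0.0409), but the interferon alpha genes are near-identical copies, so which gene was read is uncertain. Of 11 receptors, kinases and STATs, 2 fell in Trsp-RIPKO, and 1 rose and 1 fell in Trsp-Ins1KO. Jak1, the kinase shared by all interferon receptors, fell in both lines, by 0.51 and 0.34 (adjusted p = 0.0119 and 0.0218). The type I receptor genes Ifnar1 (-0.19 and -0.42) and Ifnar2 (0.03 and 0.07) did not pass the test in either line. Stat3, the transducer of the interleukin 6 family, rose by 0.41 in Trsp-Ins1KO (adjusted p = 0.00718), and so did Socs3, its feedback inhibitor (0.62, adjusted p = 0.00638).

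Of 13 further nucleic acid sensors and adaptors, 1 rose and 2 fell in Trsp-RIPKO, and 1 rose in Trsp-Ins1KO. Mavs, the mitochondrial adaptor of RIG-I and MDA5, read -0.52 and -0.53 in TrspFF, -0.75 and -0.75 in Trsp-RIPKO against -0.24 and -0.27 in Trsp-Ins1KO. It fell in the first line by 0.22 (adjusted p = 0.0457) and rose in the second by 0.27 (adjusted p = 0.0216). Of 13 brakes, 2 fell in Trsp-RIPKO, and 2 rose and 3 fell in Trsp-Ins1KO. Of 53 tested among 63 other interferon-induced genes, 17 rose and 4 fell in Trsp-RIPKO, against 18.9% and 17.5% of all genes. In Trsp-Ins1KO 12 rose and 17 fell, against 23.0% of all genes each way. The median differences of these 53 were 0.14 and -0.06.

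Among the 53, the 3 called in Trsp-RIPKO with the largest differences were GTPases, counting genes above background on every TrspFF and Trsp-RIPKO array. Iigp1, an immunity-related GTPase, read -1.30 and -1.27 in TrspFF, 0.15 and 0.07 in Trsp-RIPKO against -1.24 and -1.18 in Trsp-Ins1KO. Only Trsp-RIPKO was high, by 1.39 (SE 0.07, adjusted p = 0.00158). Gbp4 rose by 1.16 in the same line (adjusted p = 0.0021), and Gbp6 rose in both, by 1.54 and 1.84 (adjusted p = 0.0176 and 0.00743). Ifitm1, a membrane protein that blocks viral entry, fell by 1.00 in Trsp-Ins1KO (adjusted p = 0.00229). Of 18 antigen presentation genes, 2 rose and 1 fell in Trsp-RIPKO, against 18.9% and 17.5% of all genes. In Trsp-Ins1KO 3 rose and 4 fell, against 23.0% of all genes each way. Nlrc5, the activator of MHC class I genes, rose by 1.27 and 0.62 (adjusted p = 0.00329 and 0.00586), whereas H2-K1, an MHC class I chain, fell by 0.67 in Trsp-Ins1KO (adjusted p = 0.00274).

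Markers of cell types were read beside these genes and changed in both directions. Their counts here and in the next paragraph stand beside 18.9% of all genes higher and 17.5% lower in Trsp-RIPKO. In Trsp-Ins1KO the shares of all genes were 23.0% each way. The marker calls were not followed with an array left out or under other processing. Of 10 fibroblast and stellate cell markers tested, 8 rose in Trsp-RIPKO, and 7 fell and 2 rose in Trsp-Ins1KO, where the matrix gene Lum was at least 7.64-fold lower and Dcn fell by 3.03. Their summed level, relative to the 75th percentile, was 59.2 to 63.4 in TrspFF, 67.7 to 68.8 in Trsp-RIPKO and 70.7 to 76.6 in Trsp-Ins1KO, but Sparc alone made up 67.7% to 92.2% of it. Without Sparc the sums were 14.0 to 14.4, 21.8 to 21.99 and 5.96 to 6.14. Of 19 macrophage and dendritic cell markers, 5 rose and 2 fell in Trsp-RIPKO, and 9 rose and 2 fell in Trsp-Ins1KO. Their summed levels were 169 to 169.9, 218 to 230.1 and 297 to 313, of which the probe of Itgam made up 80.9% to 86.5%. Without Itgam they were 31.7 to 32.1, 31.2 to 32.4 and 42.6 to 46.6. Ptprc, the common leukocyte antigen, was above background on no Trsp-Ins1KO array, and Lyz2 only in Trsp-RIPKO. H2-Aa, an MHC class II chain, fell by 2.18 in Trsp-Ins1KO, where 1 of the 2 arrays had it above background. The other class II genes of this list, H2-Ab1, H2-Eb1 and Cd74, rose there by 0.39, 0.77 and 0.89.

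Of 5 plasmacytoid dendritic cell markers, which include Bst2, 3 rose and 1 fell in Trsp-RIPKO and 3 rose in Trsp-Ins1KO, and Klk1 was above background in Trsp-RIPKO only. The probe of Siglech made up 98.1% to 98.5% of their summed levels (213 to 239, 281 to 294 and 324 to 358), and without it the sums were 3.93 to 4.04, 4.67 to 4.82 and 5.05 to 5.31. Only 6 of 18 markers of T, B and NK cells were tested, and 11, among them Cd3d, Cd8a and Cd79a, were above background on no array. Of these 6, 4 rose in Trsp-RIPKO and 2 in Trsp-Ins1KO, with summed levels of 8.58 to 9.34, 12.7 to 14.9 and 10.3 to 10.4. Of 13 endothelial markers, 5 rose in Trsp-RIPKO, and 8 rose and 1 fell in Trsp-Ins1KO (85.4 to 87.5, 96.8 to 98.1 and 130.0 to 130.3). Acinar markers rose in both lines (12 and 11 of 13, from 17.1 to 18.0 up to 29.8 to 33.2 and 26.1 to 28.0). Of 8 intestinal markers, 7 rose in Trsp-RIPKO, but 6 of the 8 were above background on no TrspFF array and entered only through a knockout, where they were high. In Trsp-Ins1KO 3 rose (Fabp1, Vil1 and Gpa33), and the other 4 calls there compare groups that were both below background. The summed intestinal levels were 6.61 to 6.92 in TrspFF, 13.3 to 13.7 in Trsp-RIPKO and 8.60 to 9.01 in Trsp-Ins1KO. Vil1 made up 50.2% to 92.0% of these sums. Without Vil1 they were 0.55 on each TrspFF array, 6.62 to 6.82 in Trsp-RIPKO and 1.23 to 1.29 in Trsp-Ins1KO. Of 8 beta cell markers, 3 fell in Trsp-RIPKO, and 5 rose and 1 fell in Trsp-Ins1KO (3137 to 3529.7, 3527 to 3784 and 5821 to 6398), and of 7 markers of the other endocrine cells, 1 rose and 4 fell, and 5 fell (1550.4 to 1568, 1047 to 1116 and 1030.0 to 1116). Their part in the changes of the interferon response genes was not tested.

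**Figure D4:**
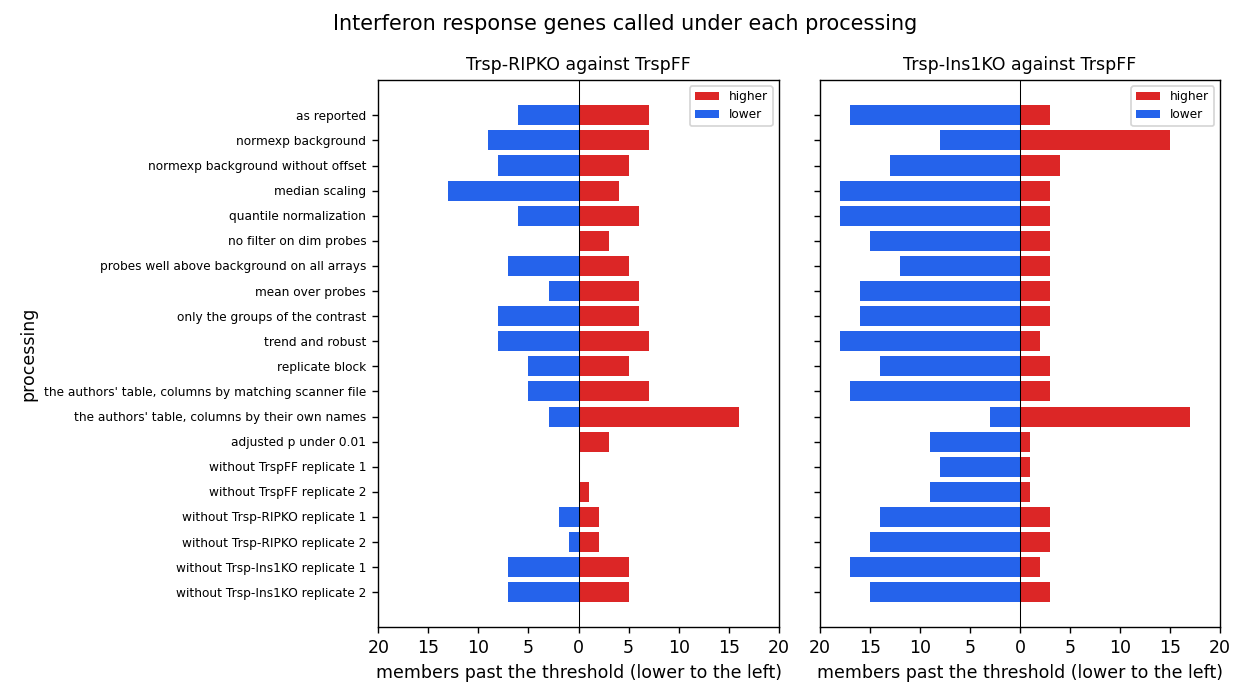
Number of the interferon response genes called higher (red, to the right) and lower (blue, to the left) than TrspFF in Trsp-RIPKO (left panel) and Trsp-Ins1KO (right panel) under each processing, at a limma adjusted p under 0.05 unless the label says otherwise. For Trsp-Ins1KO more genes were lower than higher in every processing drawn except normexp with the offset and the authors' table read by its own names. Normexp with the offset gave 15 higher and 8 lower, against 48.3% and 25.0% of all genes. The table's own names gave 17 higher and 3 lower, against 23.0% of all genes each way. For Trsp-RIPKO the balance moved with the scaling and with single arrays.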

How the data were processed

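Messenger RNA of islets was measured on 6 Cy3 arrays, 2 for each of 3 groups. Per the file headers, arrays were read with Feature Extraction 10.7.3.1 on design 026655. The deposited files give each spot's processed intensity, background-subtracted and not scaled between arrays, its median and background intensity, and 0 or 1 scores (flags) for spots well above background, saturated or outlying. A further table deposited by the authors holds log2 values (39485 probes), centred per probe and matching log2 intensities scaled to the 75th percentile. How it was scaled is not stated in the labels or headers. Its columns for TrspFF and Trsp-Ins1KO match each other's scanner files, and the scanner files were followed.

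Log2 processed intensities were scaled to each array's 75th percentile over 39426 probes, without 1377 control spots and outlier spots. No spot was saturated (0). RefSeq names (GRCm38.p6) were found for 26053 probes (66.1%). A probe entered if every array of some group had it well above background, and a gene was read by its entering probe with the highest mean (23199 probes, 19021 genes). The group means were fitted with limma 3.58.1 (R 4.3.3) over all 6 arrays, two-sided, with Benjamini-Hochberg adjustment over all genes, and the script was tested on simulated data. The spread within pairs, as the SD of the difference over genes, was 0.219 (TrspFF), 0.243 (Trsp-RIPKO) and 0.337 (Trsp-Ins1KO). The number of arrays limits the precision.

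The members, the 6 pathway lists and the 9 marker lists were chosen with earlier results of these data known. Every member was described. From each pathway list at most 3 genes a comparison were named, those past the threshold with the largest difference and above background in both groups, besides Jak1, the interferons, their receptors, Irf3 and Mavs. Alternatives changed background correction, scaling, filter, probe choice, variance model, arrays and threshold. Normexp used median spot signals, since mean signals are not among the columns used here. Normexp without the offset and tests of each probe were added after seeing the data. Some genes of these lists are not reported here by name.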

Additional observations from a re-analysis of the deposited data

Results flagged for a closer look

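The 2 knockout lines share the TrspFF arrays as control, so the test of whether their changes differ is the direct comparison of Trsp-Ins1KO with Trsp-RIPKO in limma. It was past an adjusted p of 0.05 for 19 of the 35 tested genes (54.3%), against 38.7% of all genes tested. Lower in Trsp-Ins1KO among genes above background on all arrays were Ifi27l2a (log2 difference -2.29), Xaf1 (-1.44), Gbp3 (-0.91), Samd9l (-0.63), Rtp4 (-0.57), Ifih1 (-0.54), Oas1a (-0.54), Usp18 (-0.53), Isg15 (-0.46) and Parp9 (-0.39). Higher in Trsp-Ins1KO were Rsad2 (1.11), Bst2 (0.59) and Trim25 (0.27). The other 6 genes called lower were below background in Trsp-Ins1KO, so their fitted differences have no reliable size and no order: Ifi44 (-1.25, at least 2.13-fold), Ifit1 (-1.05, at least 1.89-fold), Oas2 (-1.71, at least 1.48-fold), and Ifit2 (-1.65), Ifit3 (-1.58) and Cxcl10 (-1.65), for which no fold can be given. Ifit2 and Cxcl10 entered only through Trsp-RIPKO, where they were high, so a difference was built into the filter. Ifi44, Ifit1, Oas2 and Ifit3 entered through TrspFF and Trsp-RIPKO, so the filter favoured a lower level in Trsp-Ins1KO. The slide differed between these lines, so slide and genotype cannot be told apart in this comparison. Of the 19 calls, 12 held each time 1 array was left out, and 7 of them (Usp18, Rsad2, Bst2, Ifi27l2a, Xaf1, Samd9l and Gbp3) held under all 17 alternatives other than the stricter threshold and the table's own names. The other calls were lost without these arrays, with the highest adjusted p in brackets: Ifih1 without either TrspFF array, Trsp-RIPKO 2 or Trsp-Ins1KO 1 (0.119), Ifit2 without either Trsp-RIPKO array or Trsp-Ins1KO 1 (0.0959), and Ifit3 and Oas1a without either Trsp-RIPKO array (0.103 and 0.0578). Isg15 lost its call without TrspFF 2, either Trsp-RIPKO array or Trsp-Ins1KO 1 (0.114), Trim25 without any array other than Trsp-Ins1KO 2 (0.145), and Parp9 without Trsp-RIPKO 1 (0.0614). With normexp correction and an offset of 50, 8 of the 19 turned to the other direction.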

How the results depend on the processing

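With 2 arrays a group, the calls against TrspFF depended on single TrspFF arrays and, in Trsp-Ins1KO, on the background correction. Between the lines, leaving out a Trsp-RIPKO array lowered the count of lower calls more than leaving out a TrspFF array did. A group left with 1 array is assumed to vary like the others. Signals near background limit the dim genes, most on the Trsp-Ins1KO arrays. The counts below are of interferon response genes called in limma, with the share of all genes called the same way in brackets. For Trsp-RIPKO against TrspFF (7 higher, 6 lower), higher calls numbered 4 with median scaling (10.6%), 3 with no filter (5.7%), 3 at an adjusted p under 0.01 (5.11%), 16 by the table's own names (19.4%), and 0 to 5 with 1 array left out (3.38% to 21.1%). Lower calls numbered 13 with median scaling (38.2%), 3 with the mean over probes (15.8%), 3 by the table's own names (19.2%), 0 to 7 with 1 array left out (0.936% to 18.7%), and 0 with no filter (2.59%) or at 0.01 (2.38%), with 7 at an unadjusted p under 0.05 in each. For Trsp-Ins1KO against TrspFF (3 higher, 17 lower), higher and lower calls numbered 15 (48.3%) and 8 (25.0%) with normexp, 17 (23.0%) and 3 (23.0%) by the table's own names, 1 (11.3%) and 9 (10.8%) at 0.01, and 1 to 3 (9.51% to 21.1%) and 8 to 17 (9.04% to 22%) with 1 array left out. For Trsp-Ins1KO against Trsp-RIPKO (3 higher, 16 lower), they numbered 13 (43.8%) and 8 (19.8%) with normexp, and 5 (17.5%) and 7 (18.9%) by the table's own names. Higher calls there numbered 5 with median scaling (30%), 5 with a trended robust variance (23.3%), and 2 to 4 with 1 array left out (8.99% to 16.4%). Lower calls there numbered 10 with normexp without offset (16.1%), 10 at 0.01 (9.03%), and 11 to 17 with 1 array left out (10.5% to 17.8%). Under every other alternative the counts stayed within 1.5 times.

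Normexp with an offset of 50 turned these differences of Trsp-Ins1KO from TrspFF: Dhx58 (0.33), Ifit1 (0.29), Ifit3 (0.40), Oas2 (0.26), Oasl2 (0.31), Ifi44 (0.30), Trim30a (0.30), Gbp3 (0.27) and Cxcl10 (0.62). It turned these from Trsp-RIPKO: Ifih1 (0.00), Dhx58 (0.41), Zbp1 (0.29), Ifit1 (0.14), Ifit2 (0.31), Ifit3 (0.26), Oas2 (0.15), Ifi44 (0.10), Trim30a (0.25), Parp9 (0.03) and Cxcl10 (0.32). By construction the offset is a larger share of the signal on the dimmer Trsp-Ins1KO arrays, and without it none of these turned. Reading the table by its own names, which exchanges TrspFF and Trsp-Ins1KO, turned Trsp-Ins1KO against TrspFF for Ddx58 (0.30), Ifih1 (0.67), Dhx58 (0.74), Zbp1 (-0.47), Irf1 (-0.38), Usp18 (0.31), Ifit1 (1.02), Ifit3 (1.45), Oas1a (0.52), Oas2 (1.64), Rsad2 (-1.38), Ifi27l2a (2.85), Rtp4 (0.69), Ifi44 (0.89), Xaf1 (1.21), Samd9l (1.15), Trim30a (0.48), Parp9 (0.54), Parp14 (0.48) and Dtx3l (0.40). It also turned Trsp-RIPKO against TrspFF for Ifih1 (0.54), Rsad2 (-1.11), Ifi27l2a (2.29), Rtp4 (0.57), Samd9l (0.63) and Parp9 (0.39), and Trsp-Ins1KO against Trsp-RIPKO for Ifih1 (0.13), Rsad2 (-0.27), Ifi27l2a (0.56), Rtp4 (0.12), Samd9l (0.51) and Parp9 (0.15). In Trsp-RIPKO against TrspFF, Usp18 turned to -0.02 with median scaling, Dtx3l to 0.08 with the mean over probes, and Xaf1 to -0.72 when the 2 groups were fitted alone, since its other probe then had the higher mean. Apart from these causes by construction, the cause was not tested.

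The replicate numbers did not pair the arrays, since the deviations of same-numbered arrays correlated at 0.093, 0.079 and 0.065. With the replicate block the calls were 5 higher and 5 lower for Trsp-RIPKO (18.6% and 16.1% of all genes), 3 and 14 for Trsp-Ins1KO (22.4% and 22.2%), and 2 and 16 between the lines (18.6% and 18.5%).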
